A study of Mus musculus with 6 samples.

Results

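The receptors described here are the mouse olfactory receptors numbered Olfr987 to Olfr1318, a large run of class II receptor genes. They were taken by symbol, from probe sets paired with exactly 1 gene symbol in the annotation of the array and with pseudogene symbols left out, which gave 243 of the 22180 genes so measured. No measured value entered the choice, and each receptor had 1 probe set. All 243 matched a RefSeq gene by gene number, all lay on chromosome 2, and RefSeq listed 240 of them as protein coding.

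Olfactory receptors are G protein-coupled receptors of the nasal epithelium, where a sensory neuron expresses a single receptor gene. An odorant bound to the receptor acts through the olfactory G protein and adenylyl cyclase to open a cyclic nucleotide-gated channel. The genes stand in tandem clusters, their coding sequence usually lies in a single exon, and transcripts of some of them have been found outside the nose. Class I receptors resemble those of fish, and class II receptors make up most of the mammalian family.

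Lung RNA was measured in 3 Cd-treated and 3 control male C57Bl6 mice, with 1 array for each biological replicate. Cd-treated mice were given 10 mg/L CdCl2 in their drinking water for 20 weeks from 8 weeks of age. Control mice drank water without added CdCl2 for the same time, and all were 28 weeks old at the end. By the paper's methods, airway resistance was then measured under ketamine/xylazine, with rising doses of inhaled methacholine, before the lungs were taken. RNA came from lysed lung tissue, so a change in the number of cells of a type and a change in RNA per cell cannot be told apart. The values are log2 transcript abundances from robust multiarray averaging (RMA), so a difference of 1 is a doubling. What a probe set reads depends on its probes as well as on its transcript, and a level is therefore described by its place among all 41345 probe sets and not as an amount of RNA to be ranked between genes.

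The mean over 12 lung cell markers was 8.36 to 8.67 on the Cd-treated and 8.23 to 9.02 on the control arrays. The surfactant gene Sftpc, which marks alveolar cells, read 12.07 to 12.45 in Cd-treated and 11.99 to 12.57 in control lungs, while the macrophage gene Marco was near the median of all probe sets. Control replicate 3 stood apart, with a mean over 11 skeletal muscle genes of 8.09, against 5.08 to 5.25 on the Cd-treated arrays and 4.96 and 5.17 on the other control arrays.

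Most of these receptors read near the bottom of the array. Their median was 2.83, 3.00 and 3.17 on the Cd-treated arrays (replicates 1 to 3) and 3.03, 3.01 and 2.71 on the control arrays, where the lower quartile of all probe sets was 3.92, 4.06 and 4.20 on Cd-treated and 4.03, 4.09 and 3.77 on control arrays. The medians of the 2 groups overlapped, the highest was that of Cd-treated replicate 3, and the lowest was that of control replicate 3. On every array 77.8% to 86.0% of the receptors lay under the lower quartile, and 177 of 243 lay under it on all 6 arrays. Above the median of all probe sets on all 6 arrays were 10 receptors, and 215 were above it on none. The filter at the lower quartile of the means (4.05) was passed by 42 receptors.

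**Figure D1:**
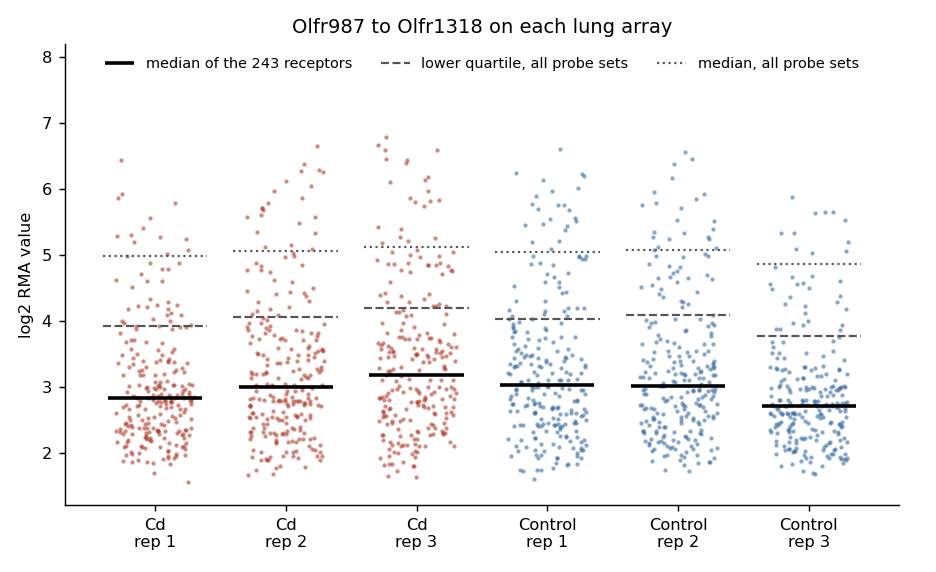
Log2 RMA values of the 243 receptors Olfr987 to Olfr1318 on the 3 Cd-treated arrays (red) and the 3 control arrays (blue), 1 point a receptor, with the median of the receptors (solid line) and the lower quartile and median of all probe sets (dashed and dotted lines). The bulk of the receptors lies under the dashed line on each array, and the solid line is highest on Cd-treated replicate 3 (3.17) and lowest on control replicate 3 (2.71).

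Whether Cd-treated and control lungs differed was tested by limma for every probe set. No receptor passed an adjusted p of 0.05 over all probe sets, where the background was 0%, and the smallest adjusted p among them was 0.992. At an unadjusted p under 0.05 from limma, 1 of 243 receptors (0.412%) was higher and 1 (0.412%) was lower in Cd-treated lungs, next to 0.564% and 0.622% of all genes. Both shares are near that background. The methods' t-test likewise passed none after adjustment. At an unadjusted p under 0.05 it gave 8 higher (3.29%, next to 1.63% of all genes) and 1 lower (0.412%, next to 0.978%), and the 8 did not include the receptor that limma put higher.

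The groups did not overlap for 15 receptors (6.17%) that were higher and 3 (1.23%) that were lower in Cd-treated lungs, next to 3.81% and 3.33% of all genes. Without control replicate 3 these counts were 18 (7.41%) and 20 (8.23%), next to 6.88% and 6.22% of all genes. For each of the 18 receptors apart on all 6 arrays an exact permutation test, two-sided over the 6 arrays, gives p = 0.1, the smallest that 3 against 3 arrays allow. Differences were small. The log2 fold change, Cd-treated minus control, ran from -0.58 to 0.77, 12 receptors were beyond 0.5 in either direction and none beyond 1, and the median standard error (SE) was 0.24.

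Olfr1181 was the receptor higher in Cd-treated lungs. It read 3.97, 3.92 and 4.96 in Cd-treated lungs (4.28 ± 0.59) and 3.72, 3.54 and 3.29 in control lungs (3.52 ± 0.22, SD, n = 3 each). The groups did not overlap, but Cd-treated replicate 3 stood well above the others, and the lowest Cd-treated array exceeded the highest control array by a small margin. Its log2 fold change of 0.77 (SE 0.32) had an unadjusted p of 0.0471 and an adjusted p of 0.992 in limma. Without Cd-treated replicate 3 the log2 fold change was 0.43 (unadjusted p of 0.108 from limma). The p was above 0.05 as well when control replicate 1, 2 or 3 was dropped, at 0.0621, 0.0883 and 0.117, and it was 0.103 in the methods' t-test on all 6 arrays.

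Olfr1216 was the receptor lower in Cd-treated lungs. It read 2.34, 2.52 and 2.12 in Cd-treated lungs (2.32 ± 0.20) and 2.89, 2.88 and 2.74 in control lungs (2.83 ± 0.083, SD, n = 3 each). The groups did not overlap, and all 6 values lay far under the lower quartile of their array. Its log2 fold change of -0.51 (SE 0.19) had an unadjusted p of 0.0304 and an adjusted p of 0.992 in limma. The unadjusted limma p was 0.0609 and 0.0918 when the Cd-treated replicate numbered 1 or 3 was dropped, and 0.0893 and 0.0765 when control replicate 1 or 2 was. The study drew Olfr1181 and Olfr1216 in its heatmap of differing olfactory genes from these same samples, so their direction is no independent evidence.

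The sequence before the coding start is shown for these 2 receptors, since they were the ones past the unadjusted threshold, and for Olfr1226, whose probe set had the highest mean of the 243 (6.29). Each run is the RefSeq promoter window of GRCm38.p6, 250 bases before to 50 after the annotated gene start. Of 200 receptors with such a window, 146 had ATG at the annotated start and 154 had a gene length in multiples of 3, so for many of them the window lies before the coding sequence and the true start of transcription is not in the table. Capitals mark that ATG and the matches to 4 motifs searched on both strands, ATGCAAAT (the octamer bound by POU factors such as Pou5f1), TAATTA and TAATGA (homeodomain cores), and TCCCNNGGG (the Olf1/EBF site of olfactory neurons).
Olfr1216 (chr2:89014013-89014312, minus strand): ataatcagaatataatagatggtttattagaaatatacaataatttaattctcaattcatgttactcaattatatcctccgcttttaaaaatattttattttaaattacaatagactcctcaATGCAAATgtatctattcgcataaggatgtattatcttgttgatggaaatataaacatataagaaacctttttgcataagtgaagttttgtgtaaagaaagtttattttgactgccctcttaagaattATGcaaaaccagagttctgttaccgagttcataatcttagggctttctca
Olfr1181 (chr2:88423974-88424273, minus strand): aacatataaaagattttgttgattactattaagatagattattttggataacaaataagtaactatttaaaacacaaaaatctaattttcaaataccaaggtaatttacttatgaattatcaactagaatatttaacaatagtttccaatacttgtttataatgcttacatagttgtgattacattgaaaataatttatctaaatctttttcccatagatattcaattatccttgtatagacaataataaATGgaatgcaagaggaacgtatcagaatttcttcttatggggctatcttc
Olfr1226 (chr2:89193983-89194282, minus strand): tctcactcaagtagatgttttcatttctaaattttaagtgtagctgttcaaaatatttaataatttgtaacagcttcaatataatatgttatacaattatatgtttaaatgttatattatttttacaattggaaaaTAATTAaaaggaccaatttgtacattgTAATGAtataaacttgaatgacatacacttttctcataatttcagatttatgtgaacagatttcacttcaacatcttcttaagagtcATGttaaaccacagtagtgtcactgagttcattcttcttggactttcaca

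The window of Olfr1216 held an octamer, that of Olfr1181 none of the 4 motifs, and that of Olfr1226 a TAATTA and a TAATGA. The windows of the 200 receptors were rich in A and T, with a median of 32.0% G and C, against 36.7% in 720 Olfr genes outside the run and 52.7% over all 27025 genes in the table. TAATTA stood in 25.5% of the receptor windows, against 16.5% of the other Olfr windows and 5.31% of all windows. TAATGA stood in 28.5%, against 29.0% and 9.99%. TCCCNNGGG was in 2.0%, against 2.78% of the other Olfr windows and 6.43% of all. The octamer was in 6 receptor windows (3.0%), against 2.64% and 1.75%. Besides Olfr1216 these were Olfr1080, Olfr1082, Olfr1153, Olfr1218 and Olfr1242, whose log2 fold changes were -0.21, -0.15, 0.42, -0.16 and -0.051. A match is a description of the letters in this window and not evidence of a bound site.

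The other large differences did not pass the test. Olfr1201 read 2.92, 3.44 and 4.33 in Cd-treated lungs and 3.30, 2.76 and 2.46 in control lungs, for a log2 fold change of 0.72 (SE 0.40, unadjusted limma p of 0.112). Olfr1265 read 4.03, 4.58 and 3.76 in Cd-treated lungs and 3.02, 4.29 and 2.99 in control lungs, for a log2 fold change of 0.69 (SE 0.41). The groups of Olfr1201 overlapped because Cd-treated replicate 1 lay below control replicate 1, and those of Olfr1265 because Cd-treated replicates 1 and 3 lay below control replicate 2. Olfr1155, Olfr1057 and Olfr1307 followed, at 0.64, 0.64 and 0.59. Of these 5, none had an unadjusted p under 0.0968 from limma.

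On the negative side Olfr1095 was farthest from 0, at a log2 fold change of -0.58 (SE 0.50). It read 2.79, 3.73 and 3.79 in Cd-treated lungs and 4.72, 4.36 and 2.97 in control lungs, so that control replicate 3 lay within the Cd-treated range. Olfr1173 behaved alike, with 1.69, 2.44 and 2.20 in Cd-treated and 3.12, 3.08 and 1.72 in control lungs. Without control replicate 3 their log2 fold changes were -1.10 and -0.99 (unadjusted p of 0.02 and 0.00938 from limma). Dropping any other single array gave -0.76 to -0.23 for Olfr1095 and -0.70 to -0.29 for Olfr1173. The unadjusted limma p was then at least 0.243 for Olfr1095 and at least 0.205 for Olfr1173. Olfr1093, of the same MOR family (a grouping by sequence) as Olfr1095, had -0.47 (unadjusted p of 0.0657 from limma), with 2.54, 2.54 and 2.99 in Cd-treated and 2.96, 3.22 and 3.29 in control lungs. Olfr1116 and Olfr1013 were at -0.39 and -0.38, with overlapping groups.

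**Figure D2:**
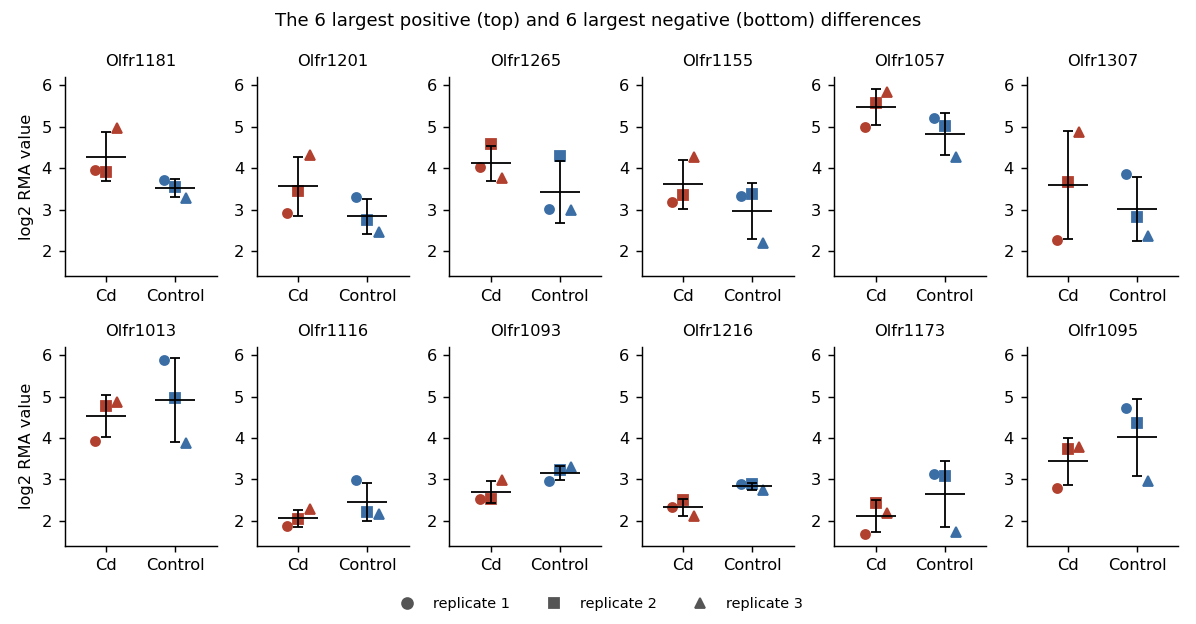
Log2 RMA values of the 6 receptors with the largest positive (top row) and the 6 with the largest negative (bottom row) log2 fold change, for Cd-treated (red) and control arrays (blue). Symbols mark the replicate number, horizontal bars the group mean and whiskers the SD (n = 3). The groups are apart for Olfr1181 and Olfr1216 and overlap in the other 10.

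Among the receptors whose groups did not overlap, the controls lay closest together in Olfr1280, with 2.10, 2.04 and 2.16 in Cd-treated and 1.81, 1.81 and 1.80 in control lungs, for a log2 fold change of 0.30 (SE 0.17, unadjusted limma p of 0.12). Olfr1276 and Olfr1230 had similar differences, at 0.30 and 0.35. Olfr1301 was the one of the 18 above the median of all probe sets, with 5.57, 5.96 and 5.86 in Cd-treated and 5.45, 5.39 and 5.33 in control lungs. The log2 fold change there was 0.41 (SE 0.19, unadjusted limma p of 0.0663). These 4 were named after their values had been seen. The 3 with every Cd-treated array below the controls were Olfr1216, Olfr1055 and Olfr1253, the last 2 at -0.23 each.

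Taken over the 243 receptors, the sign leaned toward Cd-treated lungs. The log2 fold change was positive for 156 (64.2%) and its median was 0.064, next to 47.2% and -0.018 for all genes and 0.015 for all probe sets. This lean rested on single arrays. Dropping Cd-treated replicate 3 gave a median of -0.00061 with 121 positive, and dropping control replicate 3 gave -0.011 with 116. Dropping Cd-treated replicate 1, control replicate 1 or control replicate 2 gave 0.12, 0.10 and 0.11. Centring each array on its median shifts every log2 fold change alike and leaves the gap to all genes as it was. The median was then 0.0020 with 51.9% positive, next to -0.08 and 37.2% for all genes and a median of -0.047 for all probe sets.

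Other chemosensory receptors had signs on the same side. The log2 fold change was positive for 75.4% of 114 class I receptors, Olfr543 to Olfr692 (median 0.19), for 72.2% of the 731 Olfr genes outside both runs (other Olfr genes, median 0.14), and for 64.2% of 285 vomeronasal receptors, which detect pheromones (median 0.074). Without control replicate 3 these shares were 42.1%, 42.8% and 48.8% (medians -0.084, -0.050 and -0.0057), next to 49.4% of all genes. The medians of these families across arrays had the same low points, Cd-treated replicate 1 and control replicate 3. For the other Olfr genes the medians were 3.49, 3.83 and 3.96 in Cd-treated lungs and 3.83, 3.81 and 3.20 in control lungs. Genes of low level in general had a similar share. In the lowest quartile of mean level the share with a positive sign was 62.2% of 201 receptors of the cluster and 65.2% of 3949 genes in all.

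The brighter receptors had mostly positive signs, as did other Olfr genes of that level. Above the median level of all probe sets were 19 receptors, of which 17 had a positive sign (median log2 fold change 0.23), next to 32.9% of all 12275 genes above that level (median -0.11). In the third and the fourth quartile of mean level 14 of 16 and 3 of 3 receptors were positive (medians 0.21 and 0.37), and so were 89.4% of 94 and 84.2% of 19 other Olfr genes (medians 0.33 and 0.36). This group was looked at after the data had been seen. The count was 12 (median 0.044) without Cd-treated replicate 3, 9 (median -0.043) without control replicate 3, and 6 without both. It was 12 with array weights. None of the 19 had an unadjusted p under 0.05 from limma.

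**Figure D3:**
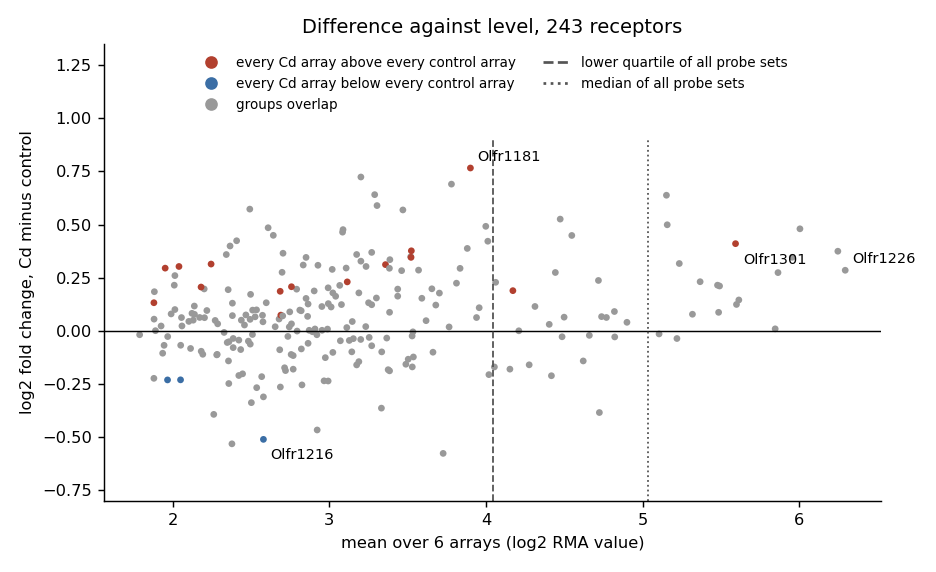
Log2 fold change, Cd-treated minus control, against the mean log2 RMA value over 6 arrays, for the 243 receptors. Red and blue points are receptors with every Cd-treated array above (15) or below (3) every control array, and vertical lines give the lower quartile (dashed) and median (dotted) of all probe sets. Of the 19 points right of the dotted line, 17 lie above 0.

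For the 8 receptors of highest mean the groups overlapped throughout. Olfr1226 read 6.45, 6.26 and 6.60 in Cd-treated and 6.02, 6.56 and 5.87 in control lungs. Olfr1269 read 5.86, 6.65 and 6.78 in Cd-treated and 6.13, 6.38 and 5.66 in control lungs. For both, control replicate 3 was the lowest array and Cd-treated replicate 3 the highest, and the groups overlapped. Olfr1085 had 5.79, 6.28 and 6.66 in Cd-treated and 5.48, 6.17 and 5.64 in control lungs. Olfr987, the first receptor of the run, had 5.93, 5.86 and 6.59 in Cd-treated and 5.76, 5.93 and 5.66 in control lungs. Its neighbour Olfr988, of the same family, split otherwise, with 5.19, 6.37 and 6.44 in Cd-treated and 6.23, 6.45 and 4.50 in control lungs. Low on Cd-treated replicate 1 and control replicate 3, it was alike on the other 4 arrays. Olfr1174, Olfr1298 and Olfr1009 completed the 8 highest means, all with overlapping groups. At the other end, Olfr1186, Olfr1160, Olfr1164 and Olfr1097 had means of 1.79 to 1.88 and ranges over the 6 arrays of 0.14 to 0.54.

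Olfr1019, a receptor for the fox odour component trimethylthiazoline that mice avoid, read 4.62, 5.71 and 6.46 in Cd-treated and 6.25, 5.34 and 4.57 in control lungs. Each group covered nearly the same span, and no difference was detectable (unadjusted p of 0.721 from limma).

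The pattern of Olfr988 and Olfr1019 was frequent among the receptors that varied most. A range of more than 2 log2 units over the 6 arrays was seen for 12 receptors (4.94%, next to 2.16% of all genes). In all 12 the 2 lowest arrays were Cd-treated replicate 1 and control replicate 3. How often other genes of such a range had this pattern was not computed. Olfr1302 was the widest, with 4.32, 5.72 and 6.18 in Cd-treated and 6.61, 5.08 and 3.03 in control lungs. Olfr1109 had 2.45, 3.86 and 4.77 in Cd-treated and 4.07, 4.29 and 1.68 in control lungs. Olfr1020, Olfr1084 and Olfr1200 had Cd-treated replicate 1 at 3.03, 1.91 and 2.84 and control replicate 3 at 2.47, 2.16 and 2.98, while the other arrays lay between 3.97 and 5.49. Since each group held 1 of the low arrays, the groups overlapped in every one of the 12.

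Over all 243 receptors these were the 2 lowest arrays for 30.0%, next to 16.7% of all genes and 44.5% of the other Olfr genes. Control replicate 3 was the lowest array for 42.0% of the receptors (27.0% of all genes), and Cd-treated replicate 3 the highest for 38.3% (23.4% of all genes). A list of 5 multicopy spermatid genes (Sly, Srsy, Srsx, Slx and Astx5) moved with this pattern, with a mean of 5.88, 7.65 and 8.96 on the Cd-treated arrays and 7.66, 7.56 and 4.48 on the control arrays. The skeletal muscle mean was high only on control replicate 3, and the 9 measured genes of squamous epithelium had means of 4.39 to 4.61 on the Cd-treated arrays and 4.47, 4.54 and 5.39 on the controls. Control replicate 3 differed there through the keratins Krt4 and Krt13, at 7.78 and 8.38, against 5.88 or less on the Cd-treated arrays and 5.78 or less on the other controls. The part of these differences between arrays in the receptor values was not tested.

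**Figure D4:**
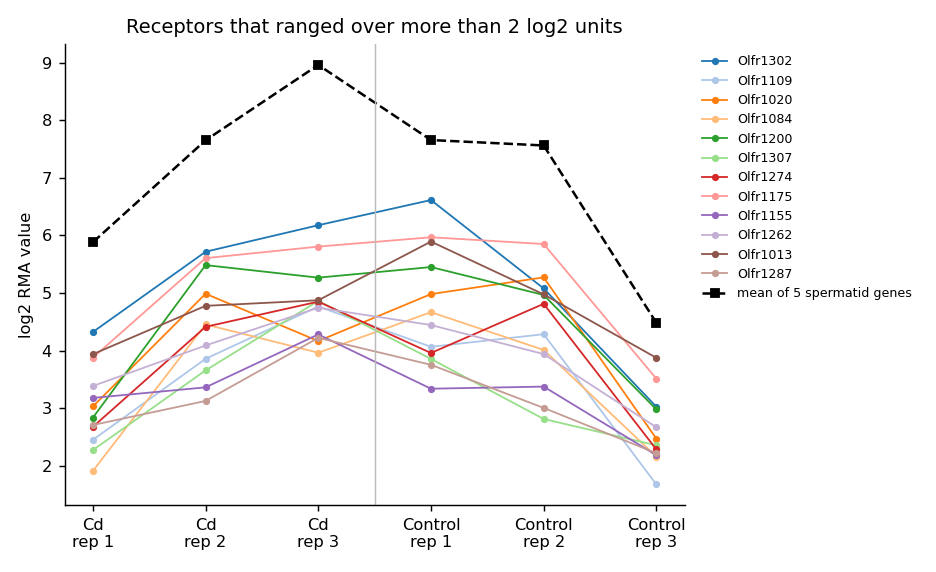
Log2 RMA values on the 6 arrays of the 12 receptors that ranged over more than 2 log2 units, with the mean of the 5 multicopy spermatid genes (black squares). Lines only join the values of a gene, since the replicates have no order. Every line has its 2 lowest values on Cd-treated replicate 1 and control replicate 3, by a small margin for Cd-treated replicate 1 in Olfr1155.

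The receptors fall into 48 families by the MOR numbers RefSeq gives as synonyms, 15 of them with a single receptor here, and 6 receptors carry none. The largest, MOR245 with 22 receptors, had a median log2 fold change of 0.053 and 15 positive signs. MOR248 (16 receptors) had 0.12 and 13 positive signs, and MOR177 (12) had 0.12 and 9. MOR174, MOR231 and MOR264, with 14 receptors each, were evenly divided at 7 positive signs. MOR225 (11), the family of Olfr1181, had 0.078, and MOR233 (17), the family of Olfr1216 and of the bright Olfr1226, had 0.082 with a range of -0.51 to 0.31. MOR179 (6), which holds both Olfr1093 and Olfr1095, had -0.045. No family of 5 or more receptors had the same sign in all of them. Receptors of a family are similar in sequence, and a probe may read more than its own gene, which was not tested.

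The receptors were also divided, in their order along chromosome 2 in the RefSeq assembly GRCm38.p6, into 10 runs of 24 or 25. The median log2 fold change lay between 0.012 and 0.11 in 9 of these runs. It was 0.25 in the run Olfr1258 to Olfr1286, where 18 of 24 receptors had a positive sign and 4 were without overlap, all higher in Cd-treated lungs, next to 3.81% of all genes. That run was picked out as the highest of 10 after its values were seen. Across the 242 pairs of neighbouring receptors the correlation of the log2 fold change was 0.07, and that of the level was 0.20. These are descriptions over genes that share the same 6 arrays.

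**Figure D5:**
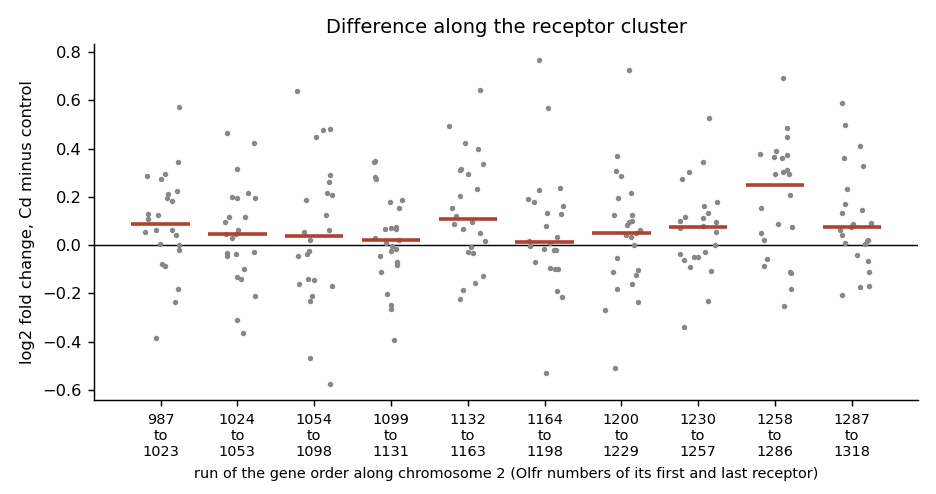
Log2 fold change, Cd-treated minus control, of the 243 receptors in 10 runs of 24 or 25 along chromosome 2, named by the Olfr numbers of their first and last receptor. Points are receptors and red bars medians, which are all above 0 and highest, at 0.25, from Olfr1258 to Olfr1286.

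Of 19 measured genes of olfactory signalling and receptor trafficking none had an unadjusted limma p under 0.05, and 12 had a positive sign (median 0.11). Gnal, the olfactory G protein subunit, read 4.38, 4.34 and 4.16 in Cd-treated and 4.12, 3.91 and 3.64 in control lungs, without overlap (log2 fold change 0.41, SE 0.20, unadjusted limma p of 0.084). Omp, a protein of mature olfactory neurons, read 5.14, 5.05 and 4.91 in Cd-treated and 4.53, 4.85 and 4.29 in control lungs, also without overlap (unadjusted limma p of 0.0576). Cnga2, the defining subunit of the olfactory cyclic nucleotide-gated channel, lay the other way at -0.34 and under the lower quartile on every array. Rtp1, which brings receptors to the cell surface, had a log2 fold change of 0.42 (SE 0.26), and Rtp2 had -0.18 (SE 0.34). Of 14 transcription genes linked to receptor choice, 1 was higher and 13 did not pass, next to 0.564% of all genes. The one was Pou5f1, a POU factor of pluripotent cells, with 5.55, 5.45 and 5.51 in Cd-treated and 4.83, 5.03 and 4.12 in control lungs (log2 fold change 0.84, SE 0.26, unadjusted limma p of 0.0152, adjusted p of 0.992). Without control replicate 3 its log2 fold change was 0.58 (unadjusted limma p of 0.0207). Lhx2, a homeodomain factor needed for receptor expression in the nose, had -0.0068. Hdac1, of the same list, read 6.97, 6.84 and 6.26 in Cd-treated and 7.10, 7.14 and 7.88 in control lungs. It was lower without overlap (log2 fold change -0.68, SE 0.30, unadjusted limma p of 0.0574). Of the 14 transcription genes 6 had a positive sign (median -0.017).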

How the data were processed

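Lung RNA of 3 Cd-treated and 3 control mice, biological replicates by their labels, was amplified with a NuGEN kit and read on Affymetrix Mouse Gene ST 2.0 arrays. The authors deposited log2 RMA values made with the R package oligo (background correction, quantile normalization, median polish). The submitters' notes name RMA and limma without versions, and a genome build is not given in the sources used here. Of 41345 probe sets, 23521 had 1 gene symbol, 1820 several and 16004 none.

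Probe sets were compared in R 4.3.3 with limma 3.58.1, group as the only term, with Benjamini-Hochberg adjustment across all of them (prior degrees of freedom 3.06). SE is the moderated standard error. P-values from limma set the difference between groups against the spread between these samples, moderated over all probe sets. The steps were tested on simulated data. The number of arrays limits the precision.

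The receptors, lists and tests were chosen with earlier results of these data known. Named receptors were those at an unadjusted p under 0.05, the 6 largest differences each way, the 8 highest and 4 lowest means, the 6 widest ranges, Olfr1019, Olfr1181 and Olfr1216. Protein identity was not computed, so receptors with near-identical copies are not marked. Alternatives changed the prior, the test (the methods' t-test), the scaling (cyclic loess, quantile, centring), the array weights, the filter on level, the choice of probe sets, the arrays kept and the replicate block.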

Additional observations from a re-analysis of the deposited data

How the results depend on the processing

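No receptor passed an adjusted p of 0.05 from limma under any alternative but array weights. That setting passed 3 (Olfr1028, Olfr1131 and Olfr1265), next to 903 of all 41345 probe sets. At an unadjusted p under 0.05 it put 34 (14%) higher and 30 (12.3%) lower, next to 9.85% and 10.8% of all genes. The median log2 fold change of the receptors was then -0.017. The weights were 0.415, 6.41 and 0.456 for the Cd-treated and 5.93, 0.604 and 0.23 for the control arrays, so that 1 array a group dominated, and 10119 of all probe sets were then at an unadjusted p under 0.05. The counts of 1 higher and 1 lower became 2 and 1 with a trended and robust prior (0.823% and 0.412%, next to 0.631% and 0.555% of all genes). They were 8 and 1 with the methods' t-test (3.29% and 0.412%, next to 1.63% and 0.978%). Cyclic loess gave 2 and 2 (0.823% each, next to 0.568% and 0.663%). Quantile normalization gave 1 and 2 (0.412% and 0.823%, next to 0.473% and 0.73%). Among the 42 receptors at or above the lower quartile the counts were 0 and 0, and 31 of the 42 had a positive sign. Leaving out an array gave 0 to 6 higher and 0 to 3 lower, and a median of -0.011 to 0.12. The shares of all genes were then 0.234% to 1.1% higher and 0.352% to 1.99% lower. The 6 higher (2.47%) came without Cd-treated replicate 1, next to 1.1% of all genes. The 3 lower (1.23%) came without control replicate 3, next to 0.478%. Receptors without overlap, 15 higher and 3 lower, were 9 and 4 with cyclic loess, 9 and 6 with quantile normalization, and 10 and 6 after centring. The higher ones were then 3.7%, 3.7% and 4.12%, next to 3.68%, 3.2% and 2.83% of all genes. The lower ones were 1.65%, 2.47% and 2.47%, next to 3.5%, 3.6% and 3.47%. Counts were 2 and 0 after the filter, where the share over all genes was not computed. They were 18 to 39 higher and 5 to 21 lower without an array, where fewer arrays overlap less. The 39 (16%) came without Cd-treated replicate 1, next to 11.4% of all genes. The 18 (7.41%) came without control replicate 3, next to 6.88%. Of the lower counts, the 21 (8.64%) came without Cd-treated replicate 3, next to 6.11% of all genes. The 5 (2.06%) came without control replicate 2, next to 12.4%. Of the 19 brighter receptors, looked at after seeing the data, 9 to 19 had a positive sign without an array.

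Without both arrays numbered 3, chosen after seeing the data, 0 were higher and 4 lower (1.65%) at an unadjusted p under 0.05 from limma, next to 0.356% and 0.848% of all genes. The median was -0.10 and 82 had a positive sign (33.7%, next to 51.8% of all genes). With 2 arrays a group 25 (10.3%) were higher and 57 (23.5%) lower without overlap, next to 14.8% and 14.2% of all genes, and 6 of the 19 brighter ones were positive. Olfr1155 was then at -0.086 and Olfr1307 at -0.37. Olfr1307 was at -0.059 with array weights and between -0.043 and 1.25 without an array, and Olfr1013 between -0.90 and 0.10. The causes were not tested.

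The replicate number was shared between groups and was not used to pair the arrays in the main fit. Deviations of same-numbered arrays from their group mean correlated at -0.491, 0.0708 and -0.513, and no Cd-treated array correlated best with its own number. Deviations within a group are tied to each other, so these correlations cannot show whether same-numbered samples were handled together. The replicate block gave 1 higher (0.412%, Olfr1265, unadjusted limma p of 0.0485) and 0 lower, next to 0.0992% and 0.212% of all genes. The median was 0.064.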
